A study of Mus musculus with 6 samples.

Results

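Mitosis and kinetochore genes were followed in the retinal pigment epithelium (RPE), the epithelium that underlies and serves the photoreceptors of the eye. The set was fixed by name as 37 genes, and a gene counted as measured when the platform annotation tied at least 1 probe set to its symbol alone. By that rule 36 of the 37 were measured among 18193 genes on the array, and Ccnb1 was not analysed here. The brightest of a gene's probe sets over all 6 arrays stood for the gene. Samples were RPE total RNA of BALB/c mice, an albino strain, on Affymetrix arrays, with 3 dark-adapted samples and 3 light-damaged ones. Both groups had been kept in the dark for 1 week, and the light-damaged mice then received 1.5 h of white fluorescent light at 6000 lux, with RPE taken 24 h later. The labels give neither the age of the mice nor whether a sample was an animal or a pool. Replicates carry the numbers 1 to 3 in both groups, and the comparison was made within these pairs. The p-values rest on the spread of the pair differences, which the method used, limma, draws toward a spread shared by all genes. They cover these samples alone, and that spread may be technical. The replicate 1 arrays stood apart in both groups: the Gapdh control probe sets of the 3′ end exceeded those of the 5′ end by 2.45 and 2.48 (log2) there, against 1.54 to 1.80 on the other arrays, a measure that depends on RNA integrity and labelling.

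Mitosis is driven by cyclin-dependent kinase activity, which condenses chromosomes and builds the spindle. Kinetochores, protein assemblies on each centromere, attach chromosomes to microtubules, and a checkpoint holds anaphase until all are attached. The anaphase-promoting complex then marks securin and the mitotic cyclins for destruction, which frees separase to part the sister chromatids and lets the cell leave mitosis. Most of these genes are transcribed mainly in dividing cells, and the RPE of adult mice is a largely non-dividing layer, so their transcripts in bulk tissue can come from any dividing cell in the sample. In bulk tissue a change in the number of such cells and a change in RNA per cell cannot be told apart.

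In light-damaged RPE 3 members rose and 1 fell by limma with the replicate number as a block, a call being an adjusted p under 0.05. Mki67, Cdca8 and Birc5 rose 2.08-fold, 2.20-fold and 1.66-fold, and Spc25, a subunit of the outer kinetochore, fell 3.05-fold by its brighter probe set and not by its other one. The other 32 members did not pass. Over all genes 3.07% were called higher and 1.92% lower, against 8.33% and 2.78% of the 36 members, so the share that fell is near the background. Without replicate 3 in both groups, 1 member was called higher (Cdca8) and 1 lower (Spc25), where calls over all genes also fell, to 0.879% higher and 0.374% lower. Without replicate 1 the same 4 members were called and Nusap1 and Ect2 joined them, giving 4 higher and 2 lower, against 4.55% and 2.3% of all genes in that fit. Differences are log2 values of the light-damaged arrays minus those of the dark-adapted arrays. Their median over the members was 0.11, against -9.4e-05 over all genes, and 26 of the 36 members lay above 0, or 72.2% against 49.9% of all genes. Without the block limma called no member, the adjusted p being 0.105 for Mki67, 0.176 for Cdca8, 0.301 for Birc5 and 0.683 for Spc25. At an unadjusted p under 0.05 that fit had 6 members higher and 1 lower, against 3.96% and 1.98% of all genes, and at the adjusted threshold it called 0.0495% of all genes.

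**Figure D1:**
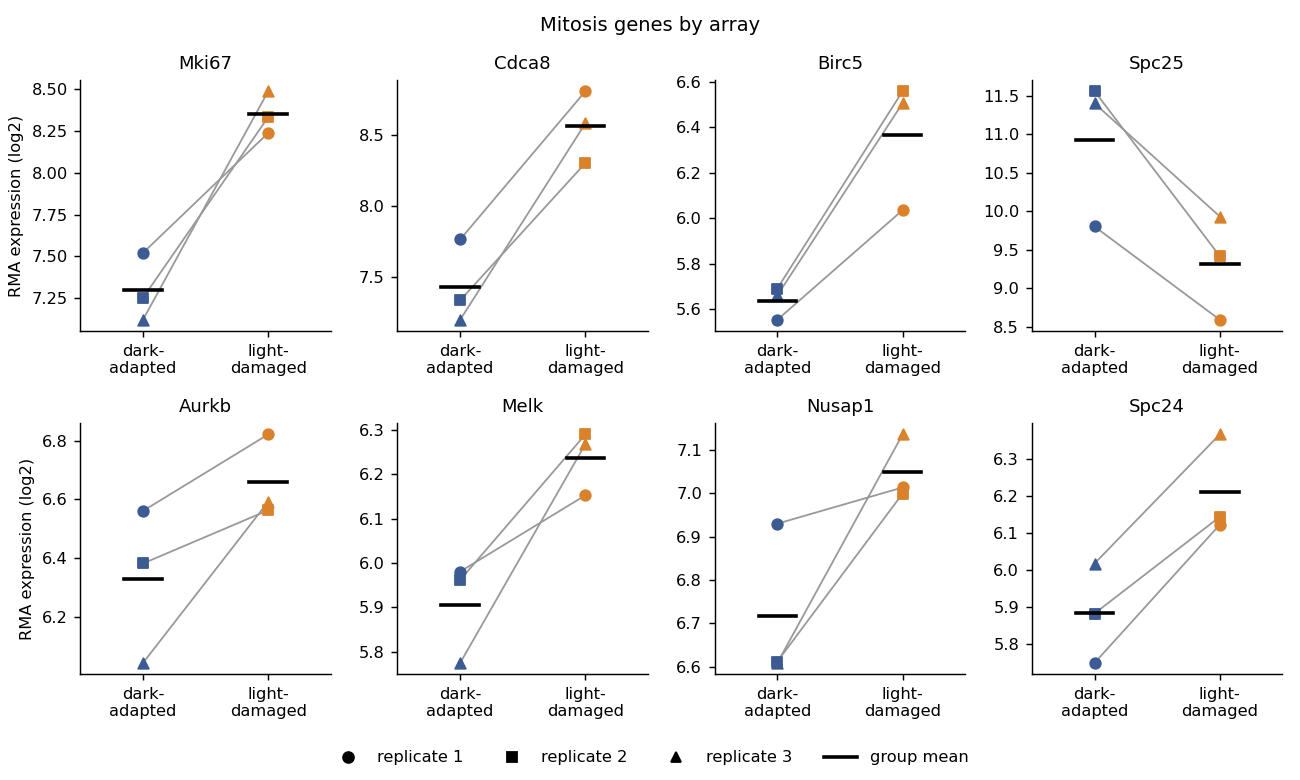
RMA expression (log2, each panel with its own axis) of 8 members on each array, with dark-adapted arrays on the left and light-damaged arrays on the right of each panel, grey lines joining arrays of the same replicate number and black bars at the group means. Mki67, Cdca8, Birc5, Aurkb, Melk, Nusap1 and Spc24 have all 3 light-damaged arrays above all 3 dark-adapted arrays, and Spc25 is lower in 3 of 3 pairs although its groups overlap.

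Mki67, the coat protein of mitotic chromosomes and the standard marker of proliferating cells, read 7.52, 7.25 and 7.12 (log2) in dark-adapted replicates 1, 2 and 3 and 8.24, 8.33 and 8.49 in the light-damaged ones. Every light-damaged array was above every dark-adapted array. The means were 7.30 ± 0.20 (SD, n = 3) and 8.35 ± 0.13, a difference of 1.06 ± 0.13 (SE, limma adjusted p = 0.0113). Without replicate 3 the difference was 0.90 and the limma adjusted p = 0.0521, so the call was lost. Mki67 had 1 probe set.

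Cdca8 encodes borealin, which holds the chromosomal passenger complex together. Its brightest probe set read 7.76, 7.33 and 7.19 in dark-adapted and 8.81, 8.30 and 8.58 in light-damaged replicates. The groups did not overlap, and the pair differences of 1.05, 0.97 and 1.39 were of similar size. The difference was 1.13 ± 0.11 (limma adjusted p = 0.00509). The other Cdca8 probe sets gave smaller differences, 0.39 ± 0.09 and 0.10 ± 0.11 and limma adjusted p-values of 0.0668 and 0.731 when all probe sets were fitted. The probe set used carries the s_at suffix, which marks possible binding to related transcripts. With probe sets lacking a suffix preferred, Cdca8 was represented by the one with the smallest difference and was not called (limma adjusted p = 0.721).

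Birc5 encodes survivin, which carries the passenger complex to centromeres and also restrains cell death. It read 5.55, 5.69 and 5.66 in dark-adapted and 6.04, 6.56 and 6.51 in light-damaged replicates, all 3 light-damaged arrays being higher. Replicate 1 had the smallest pair difference, 0.48 against 0.87 and 0.85. The difference was 0.73 ± 0.11 (limma adjusted p = 0.0183), and without replicate 3 it was 0.67 with a limma adjusted p = 0.109. Birc5 also had 1 probe set.

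The other passenger complex members are Aurkb, its kinase, and Incenp, its scaffold. Aurkb read 6.56, 6.38 and 6.04 in dark-adapted and 6.82, 6.56 and 6.59 in light-damaged replicates. All 3 light-damaged arrays were higher, with a difference of 0.33 ± 0.10 that did not pass (limma adjusted p = 0.150), and its second probe set gave 0.40. Incenp, with 5 probe sets, lay close to 0 in all of them, from -0.13 to 0.13.

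Promoters of Mki67, Birc5 and Spc25 are shown because the elements through which mitotic genes are held silent in resting cells usually lie close to the start of transcription. The DREAM complex and its MuvB core bind the cell cycle genes homology region, here searched as TTTGAA, and the factor NF-Y binds CCAAT boxes, which often accompany it. Both strands were searched in windows from 250 bases before to 50 after each annotated start in RefSeq (GRCm38.p6). Of the 36 members 29 had an entry. Of these, 22 held TTTGAA and 22 held CCAAT, or 75.9% for each, against 20.2% and 41.1% of 27025 genes with an entry, and 20 members held both, or 69.0% against 7.97%. Of 105 other mitosis genes with an entry, 31 held both, or 29.5%. The sequences run 5′ to 3′ on the gene's strand, end at the base before the outermost annotated start, and carry both motifs in capitals, 6 letters for TTTGAA and its reverse complement and 5 letters for CCAAT and its reverse complement ATTGG.
Mki67 (chr7:135716451-135716629, minus strand): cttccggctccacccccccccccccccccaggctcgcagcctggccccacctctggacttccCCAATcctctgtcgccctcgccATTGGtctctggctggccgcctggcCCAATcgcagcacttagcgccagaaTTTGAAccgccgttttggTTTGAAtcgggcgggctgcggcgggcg
Birc5 (chr11:117848987-117849236, plus strand): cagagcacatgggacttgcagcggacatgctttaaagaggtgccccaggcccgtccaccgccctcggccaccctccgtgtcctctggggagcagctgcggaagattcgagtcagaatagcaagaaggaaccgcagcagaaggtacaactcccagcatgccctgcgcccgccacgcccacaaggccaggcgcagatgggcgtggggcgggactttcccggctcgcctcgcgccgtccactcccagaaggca
Spc25 (chr2:69206214-69206463, minus strand): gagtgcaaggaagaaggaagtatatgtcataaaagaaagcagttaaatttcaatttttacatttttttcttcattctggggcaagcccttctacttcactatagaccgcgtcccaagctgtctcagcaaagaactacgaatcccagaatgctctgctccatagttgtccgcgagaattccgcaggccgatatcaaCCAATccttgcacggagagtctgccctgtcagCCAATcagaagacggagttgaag
In Spc25 the TTTGAA lies just after the start, at base 25 counted from the start as base 1, and a window of 30 bases around it is given.
Spc25 (chr2:69206179-69206208, minus strand): gtaagcaggcggtggagagTTTGAAattga
The Mki67 and Spc25 windows thus held both motifs, as did most members that were not called, and the Birc5 window held neither. A match is a description of letters, and the absence of one says only that these letters are not in this window.

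Centromere and outer kinetochore genes are Cenpa, the histone variant that marks centromeres, Cenpe and Cenpf, which bind microtubules at the corona, and Ndc80, Nuf2, Spc24 and Spc25, the subunits of the NDC80 complex that grips the microtubule. Spc25 read 9.80, 11.56 and 11.40 in dark-adapted and 8.59, 9.42 and 9.93 in light-damaged replicates. The pair differences were -1.21, -2.14 and -1.47, but dark-adapted replicate 1 lay below light-damaged replicate 3, so the groups overlapped. The difference was -1.61 ± 0.17 (limma adjusted p = 0.00679). The second Spc25 probe set read 8.25, 8.24 and 8.09 in dark-adapted and 8.56, 7.78 and 7.85 in light-damaged replicates, a difference of -0.13 ± 0.15 that did not pass (limma adjusted p = 0.746 over all probe sets). The brighter probe set carries the a_at suffix, not s_at. With probe sets lacking an s_at, x_at or a_at suffix preferred, the dimmer one stood for Spc25 and no member was called lower.

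The partners of Spc25 in the NDC80 complex did not share its direction. Spc24, which pairs with Spc25, read 5.75, 5.88 and 6.02 in dark-adapted and 6.12, 6.14 and 6.37 in light-damaged replicates. All 3 light-damaged arrays were higher, with a difference of 0.33 ± 0.09 (limma adjusted p = 0.0956). Nuf2 and Ndc80 were higher in 3 of 3 pairs without passing, Nuf2 by 0.23 ± 0.09. Cenpe, Cenpa and Cenpf had differences of 0.27 ± 0.11, 0.15 ± 0.11 and 0.09 ± 0.09, and none passed. Their further probe sets, none of which passed, gave 0.23 for Cenpe, 0.07 and 0.23 for Cenpa, and -0.006 and 0.12 for Cenpf.

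Mitotic cyclins and their kinase differed little between groups. Cdk1, the kinase that drives mitotic entry, read 8.91, 8.72 and 9.23 in dark-adapted and 8.61, 8.61 and 9.02 in light-damaged replicates. It was lower in 3 of 3 pairs with overlapping groups, and the difference of -0.21 ± 0.09 did not pass (limma adjusted p = 0.286). The cyclin gene Ccnb2 had a difference of 0.30 ± 0.11 (limma adjusted p = 0.193). Ccna2, the cyclin of S phase and mitotic entry, and Cdc25c, a phosphatase that activates Cdk1, are among the 13 members given together below.

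Top2a, the topoisomerase that untangles sister chromatids, gave answers that depended on the probe set. Its brightest probe set, which stood for the gene, read 7.40, 6.95 and 6.74 in dark-adapted and 7.36, 7.05 and 6.64 in light-damaged replicates, a difference of -0.01 ± 0.09. A dimmer one read 6.38, 6.41 and 6.42 in dark-adapted and 6.44, 7.49 and 7.24 in light-damaged replicates. There light-damaged replicates 2 and 3 stood well above every other array while replicate 1 did not, and the difference of 0.65 ± 0.19 missed the threshold (limma adjusted p = 0.127 over all probe sets). The third gave -0.10.

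Spindle checkpoint members are the kinases Bub1 and Ttk and the inhibitors of anaphase Mad2l1 and Bub1b. Bub1 read 4.93, 5.01 and 5.11 in dark-adapted and 5.03, 5.38 and 5.47 in light-damaged replicates, higher in 3 of 3 pairs with overlapping groups, and its difference of 0.27 ± 0.10 did not pass. Ttk had 0.23 ± 0.11, also higher in 3 of 3 pairs. Cdc20, which activates the anaphase-promoting complex once the checkpoint is satisfied, had 0.23 ± 0.11 by its brightest probe set, and 0.04 and -0.02 by the others.

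Among spindle kinases, motors and microtubule factors none passed. Melk, a kinase expressed in proliferating cells, read 5.98, 5.96 and 5.77 in dark-adapted and 6.15, 6.29 and 6.27 in light-damaged replicates, and Nusap1, which bundles spindle microtubules, read 6.93, 6.61 and 6.61 against 7.01, 6.9997 and 7.14. Both had every light-damaged array above every dark-adapted one and a difference of 0.33. Their limma adjusted p-values were 0.131 and 0.168. Nusap1 was called without replicate 1, at 0.46 with a limma adjusted p = 0.0388, whereas its second probe set gave -0.00077. Plk1, the kinase of centrosome maturation, had 0.21 ± 0.12. Kif11, the motor that separates spindle poles, was lower in 3 of 3 pairs by its brightest probe set at -0.27 ± 0.09 without passing, and its other probe sets gave 0.14 and 0.08.

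Central spindle and cytokinesis genes organise the cleavage furrow. Ect2, the exchange factor that activates RhoA there, read 6.65, 8.37 and 8.32 in dark-adapted and 6.55, 7.23 and 7.49 in light-damaged replicates. Replicate 1 was low in both groups, and the pair differences were -0.10, -1.13 and -0.83. The difference of -0.69 ± 0.19 did not pass (limma adjusted p = 0.107), and without replicate 1 it was -0.98 with a limma adjusted p = 0.00422. Racgap1, the centralspindlin subunit that binds Ect2, had 0.21 ± 0.12 by its brightest probe set, and -0.14 and 0.08 by the others. The microtubule bundler Prc1 had 0.12 ± 0.11.

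The 13 members given by their range were Ccna2, Cdc25c, Incenp, Mad2l1, Bub1b, Ndc80, Aurka, Tpx2, Hmmr, Ube2c, Kif20a, Kif23 and Anln. By their brightest probe sets the differences lay between -0.06 and 0.12. The second Anln probe set gave 0.29 ± 0.09 (limma adjusted p = 0.146 over all probe sets). Of the other Hmmr probe sets, 1 gave 0.25 and the rest -0.12 to -0.02. They include Aurka and Tpx2, the spindle pole kinase and its activator, Ube2c, the ubiquitin-conjugating enzyme of the anaphase-promoting complex, the central spindle motors Kif20a and Kif23, and the contractile ring protein Anln. Each of the 13 changed sign in at least 1 of 18 alternatives and none was called in any.

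**Figure D2:**
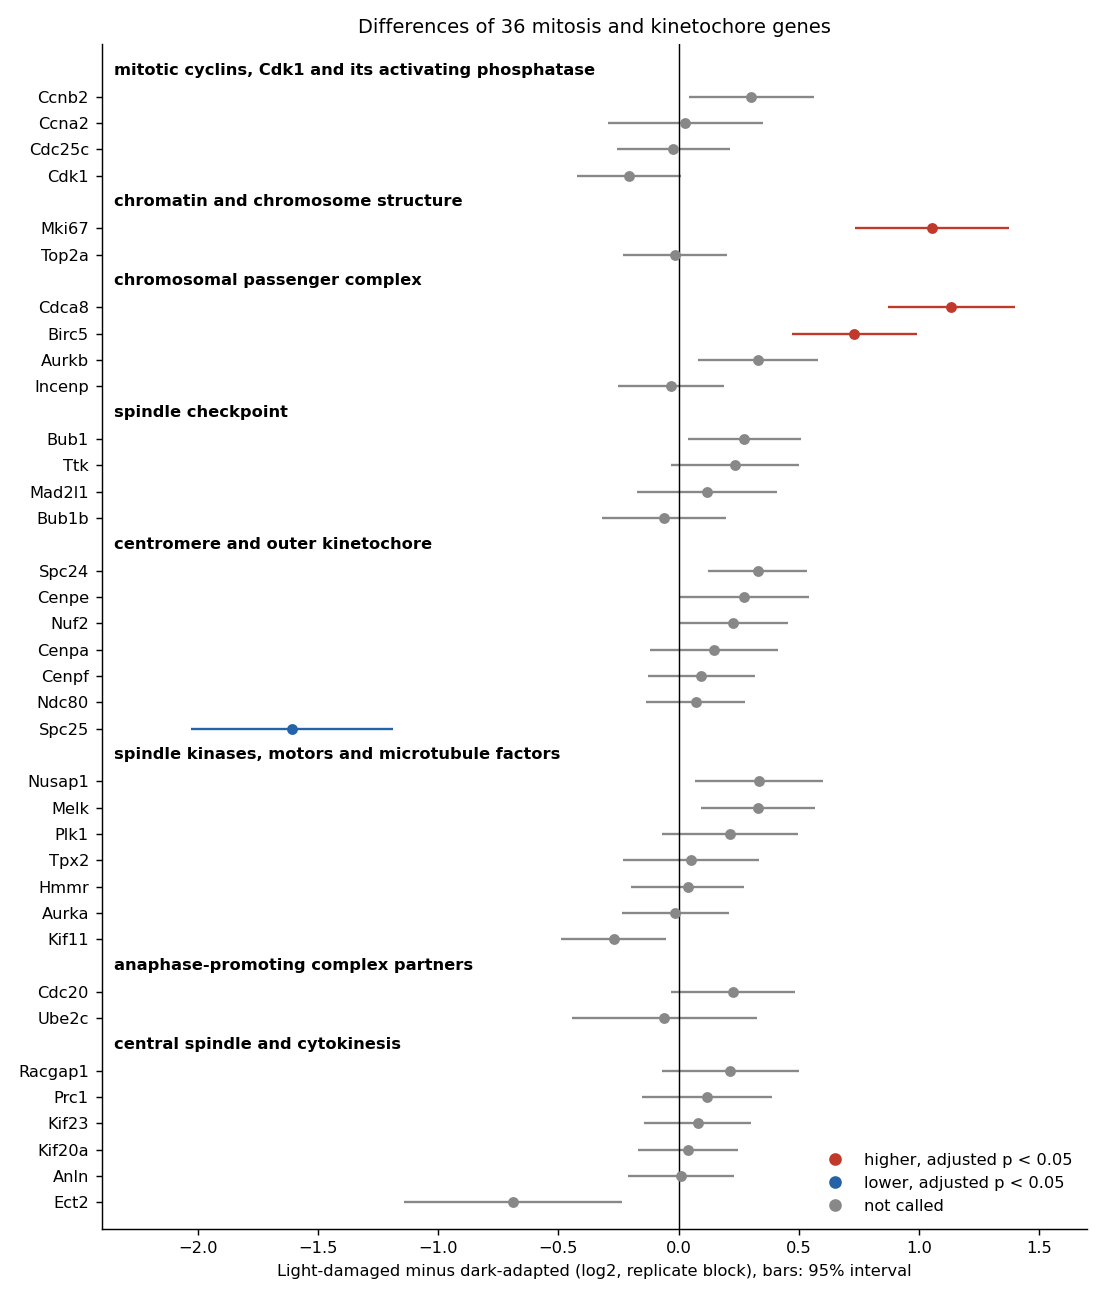
Light-damaged minus dark-adapted difference (log2, limma with the replicate block) of the 36 measured members, grouped by role, with 95% intervals that are not adjusted for the number of genes and colours for the calls. Mki67, Cdca8 and Birc5 lie at 0.73 to 1.13, Spc25 at -1.61, and the 32 members that did not pass between -0.69 and 0.33.

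Of the 32 members that did not pass, 31 had a 95% interval inside a 2-fold change in either direction, Ect2 being the exception, and 30 inside 1.5-fold, the exceptions being Ect2 and Nusap1. These intervals are not adjusted for the number of genes. They also rest on the block, without which each of these members had a larger standard error. For Cdc25c it was 0.10 with the block and 0.35 without it, and for Melk 0.10 and 0.12. At an unadjusted p under 0.05 there were 11 members higher and 3 lower, or 30.6% and 8.33% of the 36, against a background of 9.48% and 9.57%. Light-damaged arrays were all above dark-adapted arrays for 7 members, or 19.4% against 6.61% of all genes, and all below for 0 members against 3.72%. Higher in 3 of 3 pairs were 15 members, or 41.7% against 19.9%, and lower in 3 of 3 pairs were 4, or 11.1% against 20.7%. The median of the members was 0.17, 0.06 and 0.16 in pairs 1, 2 and 3.

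Probe sets of the same gene often differed in size. Of the 36 members 23 had more than 1 probe set, with 40 further probe sets in all. Of these 40, 25 had the sign of the brightest one and 15 the opposite sign. None of the 40 was called when all 34945 probe sets with 1 symbol were fitted in limma, a fit that called 2.38% higher and 1.39% lower, and 6 had an unadjusted p under 0.05. In no case did probe sets of opposite sign both have an unadjusted p under 0.05. For Cdca8 and Spc25 the call thus rested on 1 of 3 and 1 of 2 probe sets, while Mki67 and Birc5 had no second one.

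**Figure D3:**
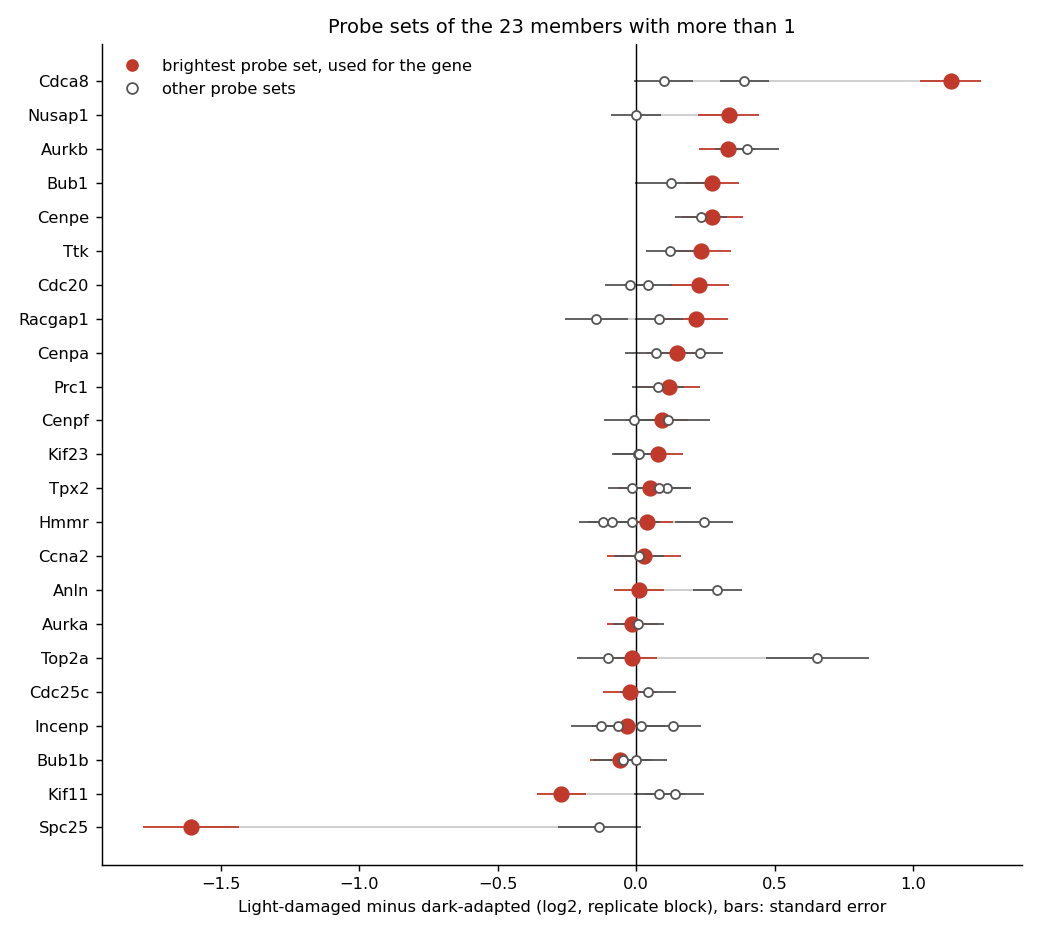
Light-damaged minus dark-adapted difference (log2, limma with the replicate block, bars are standard errors) of every probe set of the 23 members with more than 1, with filled red points for the brightest. Cdca8, Top2a and Spc25 spread widely, Cdca8 from 0.10 to 1.13, Top2a from -0.10 to 0.65 and Spc25 from -1.61 to -0.13.

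RPE markers were present on all arrays, with Rpe65 between 13.10 and 14.59 (log2), and so were those of rods, with Gnat1 between 14.01 and 14.66. The mean log2 level of 12 of 13 rod and cone markers was 11.95, 12.57 and 12.45 in dark-adapted and 11.27, 11.75 and 12.06 in light-damaged replicates. All 12 differences lay below 0, and 6 of the 12, or 50%, were called lower, against 1.92% of all genes. The rod and cone mean was lowest in replicate 1 of each group and lower in the light-damaged array of all 3 pairs. Ect2 and the brighter Spc25 probe set had the same pattern. The second Spc25 probe set did not, being highest in replicate 1 of both groups. The low replicate 1 was not particular to rod and cone markers. The Müller glia mean was also lowest there, at 10.33 and 10.29, though it was not lower in all 3 pairs. Across the arrays, the first principal component held 74.4% of the variance. It was negative on both replicate 1 arrays and positive on the others. The mean of 15 RPE markers was 12.72 to 13.00 in dark-adapted and 12.18 to 12.54 in light-damaged arrays. All 15 differences lay below 0, 13 of them at an unadjusted p under 0.05 in limma with the block, and 3 of the 15, or 20%, were called lower. The mean of 15 macrophage and microglia markers was 9.28 to 9.55 in dark-adapted and 10.16 to 10.42 in light-damaged arrays, higher by 0.81 to 0.90 in the pairs. Of the 15, 13 were called higher, against 3.07% of all genes, among them Cd68 and Lyz2. Csf1r, the 1 marker of this list below 0, had -0.15, was lower in 3 of 3 pairs and was not called. The mean of 8 of 9 neutrophil markers was 7.24 to 7.53 against 7.65 to 8.18, with 2 higher. Lymphocyte markers had none called among 7 at the adjusted threshold and 1 at an unadjusted p under 0.05 in limma with the block. Endothelial markers were at 7.44 to 7.59 in dark-adapted and 7.51 to 7.80 in light-damaged arrays, with 1 of 10 higher, pericyte and fibroblast markers at 10.18 to 10.38 and 10.46 to 10.67, with 3 of 11 higher, and Müller glia markers at 10.33 to 10.81 and 10.29 to 10.99, with 2 of 9 higher. The part of these cell types and of RNA quality in the member values was not tested.

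**Figure D4:**
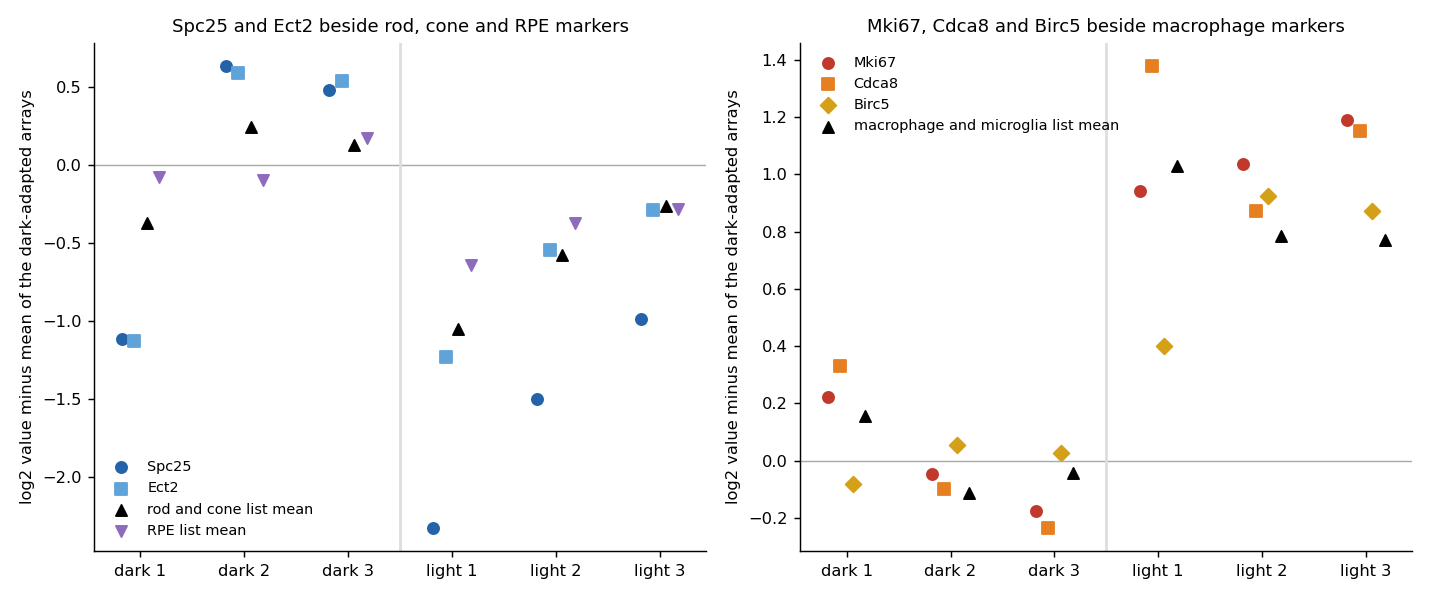
Values on each array as log2 minus the mean of the 3 dark-adapted arrays, for Spc25 and Ect2 with the means of the rod and cone and RPE marker lists (left), and for Mki67, Cdca8 and Birc5 with the mean of the macrophage and microglia list (right). Ect2, the rod and cone mean and Spc25 by its brighter probe set are lowest in replicate 1 of each group. The Müller glia mean, not drawn, is also lowest there, whereas the second Spc25 probe set, not drawn, is highest there. Mki67, Cdca8, Birc5 and the macrophage mean are above every dark-adapted array in all 3 light-damaged arrays. So are the neutrophil mean and the pericyte and fibroblast mean, not drawn. Among the light-damaged arrays the macrophage mean and Cdca8 are highest in replicate 1, where Mki67 and Birc5 are lowest.

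Other genes of mitosis were counted in 5 lists that hold no member, 125 genes measured of 127 listed. Of these 7 rose and 2 fell, or 5.60% and 1.60%, against 3.07% and 1.92% of all genes, and the median difference was 0.06. Differences above 0 made up 68% of the 125, against 49.9% of all genes. At an unadjusted p under 0.05, 18.4% were higher and 4% lower, against 9.48% and 9.57%. Light-damaged arrays were all above dark-adapted arrays for 15.2%, against 6.61%. Higher in 3 of 3 pairs were 34.4%, against 19.9%, and lower in 3 of 3 pairs 12%, against 20.7%. Leaving out replicate 1, 2 or 3 in both groups gave 13, 4 and 2 higher and 2, 1 and 0 lower, while the share of all genes called was 4.55%, 2.15% and 0.879% higher and 2.3%, 1.57% and 0.374% lower. Without the block limma called none of the 125, with 9 higher and 1 lower at an unadjusted p under 0.05, a threshold that 3.96% and 1.98% of all genes passed in that fit.

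Of 33 other centromere and kinetochore genes, Cenpt, which links the centromere to the outer kinetochore, rose 1.50-fold and Mis18a, which helps load Cenpa, rose 1.39-fold, while Ska2, of the complex that tracks microtubule ends, fell 1.45-fold and its second probe set gave -0.14. The second Mis18a probe set gave 0.41 and did not pass over all probe sets (limma adjusted p = 0.0967). Zwilch, of the checkpoint's RZZ complex, had 0.44 without passing. Of 20 condensin and cohesin genes, the condensin subunits Ncaph (0.86 ± 0.10) and Smc2 (0.62 ± 0.10) rose. The second Ncaph probe set gave 0.46, and with probe sets lacking a suffix preferred Ncaph was not called (limma adjusted p = 0.0587). Smc2 rose by the brightest of 5 probe sets, the others giving 0.08 to 0.25. Stag2 had -0.41 without passing, and its second probe set gave 0.04. Cdca5, which protects cohesion, had 0.30 by its brightest probe set and 1.25 by the other, and the latter passed over all probe sets (limma adjusted p = 0.0128).

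Of 27 other motors, spindle and cytokinesis genes, Cep55, which recruits the machinery of final abscission, rose 1.49-fold, its second probe set giving -0.01. Shcbp1, Trip13 and Pbk had 0.48, 0.68 and 0.48 without passing, and the other Trip13 probe sets gave 0.14 and 0.004. Of 25 genes of the anaphase-promoting complex and mitotic entry, Cks1b, a small subunit of cyclin-dependent kinases, rose 2.04-fold (limma adjusted p = 0.00448), and its second probe set gave 0.71. Anapc11, the catalytic ring subunit, fell by 0.65 on the log2 scale, while its other probe sets gave -0.12 and -0.08. Cks2 and Anapc2 had 0.31 and 0.14, and the second Cks2 probe set gave 0.41. Of 20 transcription factors of the E2F, MYB, FOXM1 and DREAM group, E2f6, a repressor, rose 1.41-fold, its second probe set giving 0.03. Rbl1, E2f7 and Rbl2 had 0.57, 0.35 and -0.44 without passing. The other Rbl1 probe sets gave 0.14, -0.08 and 0.11, and the second Rbl2 probe set gave -0.09.

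DNA replication genes, which act before mitosis, passed in larger numbers, 10 higher and 0 lower of 27. That is 37.0% higher, against 3.07% of all genes, with a median difference of 0.43 against 0.11 for the members. Without the block limma called 0 of the 27. At an unadjusted p under 0.05 that fit had 14 higher and 0 lower, against 3.96% and 1.98% of all genes. Mcm5, Uhrf1, Rrm2 and Cdt1 led with 1.52, 1.42, 1.35 and 1.03. Their further probe sets gave 0.76 and 0.08 for Mcm5, 0.17 for Uhrf1, 0.13 and 0.22 for Rrm2, and 0.64 and -0.15 for Cdt1. The difference between the lists was not tested.

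**Figure D5:**
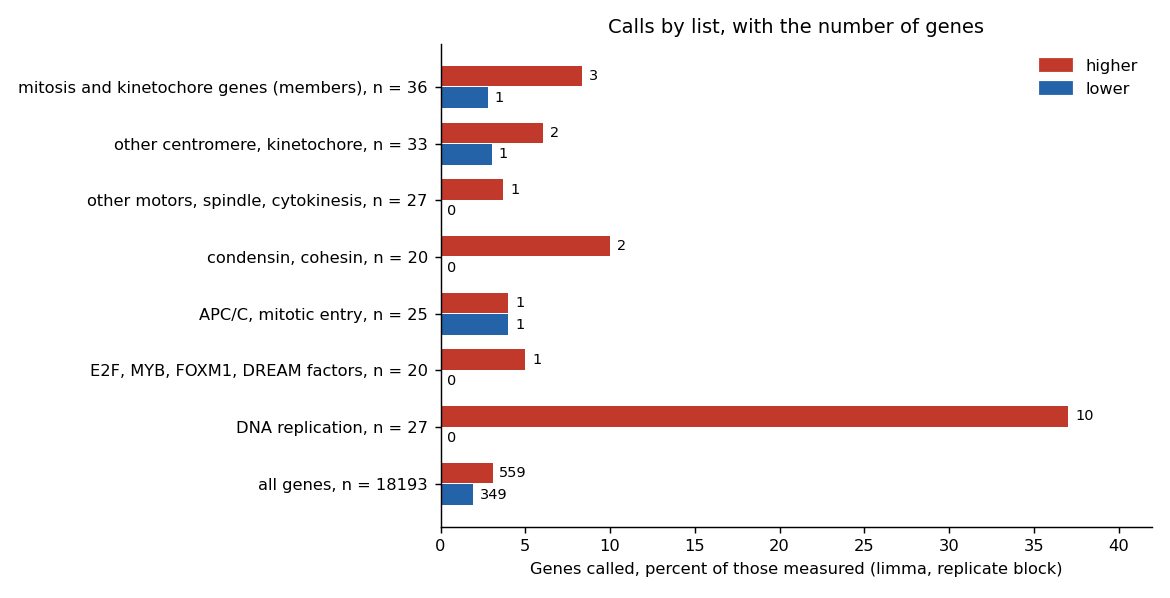
Percent of the measured genes of each list called higher (red) or lower (blue) by limma with the replicate block, with the number of genes at each bar and n beside each name. The members stand at 8.33% higher and 2.78% lower, the DNA replication list at 37.0% higher, and all genes at 3.07% and 1.92%.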

How the data were processed

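The deposited values are log2 expression per probe set. The submitters' processing notes name RMA, a method of background correction, normalization and probe summary; its version is not given in the sources used here. RMA compresses differences near the background, so those of dim genes are understated, and detection calls were not used here. Of 45101 probe sets, 34945 had exactly 1 gene symbol in the platform annotation, and the brightest probe set of each of 18193 genes was kept.

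The main model (limma 3.58.1, R 4.3.3, lmFit and eBayes, two-sided) held the group and the replicate number as a block, which left 2 residual degrees of freedom, and p-values were adjusted by Benjamini-Hochberg over all genes. What a shared replicate number stands for is not in the labels. Same-numbered arrays were treated as pairs by the rule set for the comparison. They deviated together from their group means (correlations across genes of 0.89, 0.62 and 0.86, bound 0.1). Replicate 1 drives much of this, and the crossed pairing of replicates 2 and 3 gave 0.65 and 0.61. Dark-adapted replicate 2 was closer to light-damaged replicate 3 (0.65) than to its own number (0.62). These correlations therefore do not settle the pairing of replicates 2 and 3. The code was tested on simulated data. The members and lists were chosen with earlier results of these data known. Array values are given for members that were called, had groups without overlap or had the 5 largest differences, and for Bub1, Cdk1 and Top2a, chosen after their values were seen. The 4 genes of each other list with the smallest unadjusted p are named. Promoter sequences are from RefSeq, GRCm38.p6. Promoters were counted for all members with an entry and described singly for 3 called genes, and that of the other called gene is not reported here.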

Additional observations from a re-analysis of the deposited data

How the results depend on the processing

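The calls rest on the block. Without the replicate block limma called 0 members higher and 0 lower, and 0 and 0 of the other mitosis genes, against 3, 1, 7 and 2 with it, and leaving out each array in turn without the block also gave 0 throughout, with medians of the members from 0.0087 to 0.22, 0.21 without light-damaged replicate 3. With the block, leaving out replicate 1, 2 or 3 gave 1 to 4 members higher, 1 to 2 lower, member medians of 0.081 to 0.18, and 2 to 13 higher and 0 to 2 lower among the other mitosis genes. The filter on dim genes left 6 members, without Mki67, Cdca8 and Birc5, of which 0 were called higher, and their median was -0.046. Array weights gave 8 members higher and 2 lower, and 17 other mitosis genes higher, with 10.3% of all genes called in either direction against 4.99%. Preferring probe sets without a suffix ended the Cdca8 call (0.10) and that of Spc25, leaving 2 members higher (Mki67 and Birc5), 0 lower and 1 other mitosis gene lower, and the mean of all probe sets gave 0 of the latter. For these changes the cause was not tested. Quantile normalization, median centring, a pseudocount of 16, and trend and robust settings left the same 4 members called. Top2a changed sign without replicate 3 (0.027, against -0.069 without replicate 2), with the mean of probe sets (0.18), and without the block when dark-adapted replicate 1 (0.17) or light-damaged replicate 3 (0.17) was left out. Also without the block, leaving out light-damaged replicate 1 turned Cdc20 to -0.013, Cenpa to -0.067, Rbl2 to 0.63 and Stag2 to 0.23, leaving out dark-adapted replicate 1 turned Cks2 to -0.0063, and leaving out dark-adapted replicate 3 turned Rbl2 to 0.066. The number of arrays limits the precision, and 30 of the 36 members lay below the median level of all genes.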
